A study of Mus musculus with 48 samples.

Results

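The sequences described here are the BCR heavy-chain sequences with 10 or more mutations in the V segment, found in the lacrimal gland (LG) and the spleen (SP) of 24 mice. A mutation is here any base that differs from, or is missing against, the germline V gene assigned by IgBLAST, so the sequences were selected on the deposited number of mutations. The number of mutations of the selected sequences is given below as a description with no test. The share of a library that the rule took was compared between groups and tissues by tests. The rule took 113578 of 4834214 deposited sequences (2.35%), of which 9254 of 188868 came from LG libraries and 104324 of 4645346 from SP libraries. Just outside the limit stood 45392 sequences with 8 and 31995 with 9 mutations, and just inside it 24907 with 10 and 18631 with 11. The deposited files held the sequences under the heading of mutations, but 33.7% of those analysed were within 2 mismatches of a join of 2 germline V genes and a further share was assigned to V genes whose IgD sequences also carry many mutations (both below). They are therefore called high-mismatch sequences.

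All mice were B6 (C57BL/6) animals. NOD-FMT mice (n = 10) were gavaged daily for 3 weeks, from 5 weeks of age, with pooled fecal microbiota of 30 NOD.B10.H2b mice over 20 weeks old, a strain with autoimmune dry eye disease. PBS-T mice (n = 9) received PBS by gavage in parallel, and both groups had first undergone 7 days of mixing of feces between cages and 7 days of ampicillin, vancomycin and metronidazole in the drinking water. NC mice (n = 5) were untreated animals of the same cohort. Each mouse gave 1 LG and 1 SP library, and the pooling of donor feces means that all NOD-FMT mice share 1 donor material.

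After contact with antigen, B cells in germinal centres mutate the V segment of their antibody genes through activation-induced deaminase, an enzyme that prefers certain short motifs, and cells whose receptors bind better are kept. The same enzyme switches the constant region from IgM and IgD, the isotypes of naive B cells, to IgG, IgE or IgA. IgA is the main antibody of secretions, and plasma cells in the lacrimal gland release it into tears. A clonotype is here the set of sequences with the same V gene, J gene and HCDR3 amino acids, HCDR3 being the loop that V, D and J segments form together and the main mark of B cell descent.

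Sequences that occurred identically in at least 3 mice of 1 tissue were left out, which kept 9181 high-mismatch LG and 104304 SP sequences. The libraries kept 40105 to 264365 counts in the LG and 71859 to 2032338 in the SP, where a count is 1 consensus sequence of a molecular identifier. A count of 0 in the shallowest libraries allows a share of up to 0.00748% of the LG and 0.00417% of the SP counts, for counting error only. The LG library of PBS-T mouse 5 stood apart. It had the most sequences, 77945 kept and in 17213 clonotypes, where the other glands had 2188 to 13907 sequences. High-mismatch sequences made up 7.94% of it. It held 6187 of the 9181 high-mismatch LG sequences and 2224 high-mismatch clonotypes, while the other PBS-T glands held 18 to 79. Of those clonotypes 15 (0.674%) were in the spleen of the same mouse, against 4.11% to 77.8% (median 39.4%) in the other 23 glands. In 11 other glands, 106 high-mismatch sequences were identical to one of that library, 30 of them in the gland of NC mouse 3 and 19 each in those of NC mouse 4 and PBS-T mouse 7. The gland of NC mouse 2 shared 24 clonotypes with that of NC mouse 3, and 38.8% of its clonotypes were in the spleen of NC mouse 3 against 34.7% in its own. Gland results are therefore given with and without PBS-T mouse 5 where they rest on it. The part of such sharing in the results was not tested beyond that.

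Sequences that carry the main patterns are shown first, each 5′ to 3′ as deposited, the first 5 up to and including the codon after the HCDR3. The first pair shows a gland clonotype whose unmutated member and mutated members were both found. In the LG of NOD-FMT mouse 7 the clonotype IGHV14-2 IGHJ2 with HCDR3 ARSGEGFDY (IGHV14-2 at chr12:113994469-113994898, minus strand, GRCm38) had 144 sequences, 1 of them unmutated with 2 counts, and its leading mutated sequence held 4261 counts. Capitals mark the 14 bases in which the mutated sequence differs from the unmutated one. All lie before the HCDR3, 1 of them in CDR1 and 3 in CDR2.
IGHV14-2 unmutated, IgA: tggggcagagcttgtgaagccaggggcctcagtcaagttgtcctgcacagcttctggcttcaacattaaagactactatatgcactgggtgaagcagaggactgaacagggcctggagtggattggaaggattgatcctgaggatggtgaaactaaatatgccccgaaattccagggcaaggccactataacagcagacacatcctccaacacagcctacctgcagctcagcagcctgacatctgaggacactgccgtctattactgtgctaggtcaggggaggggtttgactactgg
IGHV14-2 with 14 mutations, IgA: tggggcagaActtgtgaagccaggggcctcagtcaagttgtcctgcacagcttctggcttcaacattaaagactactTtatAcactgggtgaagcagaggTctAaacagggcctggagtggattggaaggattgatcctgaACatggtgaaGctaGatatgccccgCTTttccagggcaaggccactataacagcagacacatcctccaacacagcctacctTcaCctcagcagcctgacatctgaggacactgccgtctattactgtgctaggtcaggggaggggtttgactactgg

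The second set shows 1 clonotype in both tissues. In NC mouse 4, IGHV1-26 IGHJ2 with HCDR3 ARLGYGGSY (IGHV1-26 at chr12:114788372-114788805, minus strand) was found in the LG and the SP, and its leading high-mismatch sequences in the 2 tissues differed by 1 base and shared 11 differences from the unmutated gland sequence. The unmutated sequence had 1 count in the LG and 1 in the SP, and the leading high-mismatch sequences had 69 and 503. Capitals mark the bases that differ from the unmutated sequence of the same library, 12 in the LG and 11 in the SP, 1 of them in the HCDR3 of both.
IGHV1-26 unmutated, LG, IgA: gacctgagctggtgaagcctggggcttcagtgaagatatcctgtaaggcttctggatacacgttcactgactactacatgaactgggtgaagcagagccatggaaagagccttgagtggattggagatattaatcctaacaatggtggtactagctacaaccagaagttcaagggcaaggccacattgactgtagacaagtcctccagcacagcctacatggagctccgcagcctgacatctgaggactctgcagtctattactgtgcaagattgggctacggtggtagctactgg
IGHV1-26 with 12 mutations, LG, IgA: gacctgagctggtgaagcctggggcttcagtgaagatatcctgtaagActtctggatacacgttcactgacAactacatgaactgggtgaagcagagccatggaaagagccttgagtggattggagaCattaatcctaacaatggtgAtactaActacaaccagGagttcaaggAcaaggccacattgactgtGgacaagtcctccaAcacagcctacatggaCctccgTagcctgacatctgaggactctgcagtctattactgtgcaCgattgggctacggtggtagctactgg
IGHV1-26 with 11 mutations, SP, IgA: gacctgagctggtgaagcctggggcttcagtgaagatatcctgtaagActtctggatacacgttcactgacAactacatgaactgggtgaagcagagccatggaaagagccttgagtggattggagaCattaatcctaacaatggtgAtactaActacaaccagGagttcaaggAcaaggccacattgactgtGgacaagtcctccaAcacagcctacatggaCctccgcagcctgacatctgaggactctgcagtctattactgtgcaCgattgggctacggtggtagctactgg

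The third set shows a join. A sequence of SP NOD-FMT mouse 3 (IgG1, 11 counts) was assigned to IGHV9-4 with 11 mutations. Its first 98 bases equalled IGHV9-3 (chr12:114140692-114141122) and the bases after them equalled IGHV9-4 (chr12:114299961-114300389), with 0 mismatches in 263 bases. Capitals in the germline sequences mark the 11 bases of each that the read does not have.
Read of SP NOD-FMT mouse 3: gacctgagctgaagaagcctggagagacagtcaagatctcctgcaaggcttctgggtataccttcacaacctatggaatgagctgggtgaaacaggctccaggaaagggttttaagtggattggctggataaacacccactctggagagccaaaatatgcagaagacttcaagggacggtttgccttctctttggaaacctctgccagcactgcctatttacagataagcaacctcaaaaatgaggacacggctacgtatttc
Germline IGHV9-3: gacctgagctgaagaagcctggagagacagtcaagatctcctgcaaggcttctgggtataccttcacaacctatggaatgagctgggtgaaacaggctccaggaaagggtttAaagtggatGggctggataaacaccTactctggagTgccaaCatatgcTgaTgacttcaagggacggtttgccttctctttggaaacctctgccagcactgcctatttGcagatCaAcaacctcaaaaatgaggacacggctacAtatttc
Germline IGHV9-4: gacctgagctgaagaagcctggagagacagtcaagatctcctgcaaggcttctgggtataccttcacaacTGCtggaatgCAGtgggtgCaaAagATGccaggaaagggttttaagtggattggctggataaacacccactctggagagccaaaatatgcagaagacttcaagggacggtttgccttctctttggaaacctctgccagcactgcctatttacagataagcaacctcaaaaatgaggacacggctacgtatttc

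The last shows a V segment assigned to a gene that it does not match. This V segment was on 3299 of the high-mismatch sequences. The sequence it was read from, IgG2C of SP NOD-FMT mouse 5 with 691 counts, had 43 mutations against IGHV8-6 (chr12:115165777-115166220), of which 40 were mismatches and 3 deleted bases. Its 264 bases before the HCDR3 occur without a mismatch in the annotated gene Ighv8-2 (chr12:114462291-114462730, minus strand, GRCm38). Capitals mark the 38 bases in this stretch that differ from the assigned IGHV8-6.
V segment assigned to IGHV8-6: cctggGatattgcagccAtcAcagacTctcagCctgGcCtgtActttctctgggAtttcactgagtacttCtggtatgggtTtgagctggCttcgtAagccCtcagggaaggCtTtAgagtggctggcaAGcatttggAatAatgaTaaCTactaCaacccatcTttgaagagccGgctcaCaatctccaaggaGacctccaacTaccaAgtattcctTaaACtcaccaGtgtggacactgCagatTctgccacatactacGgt

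The question whether 10 or more mutations mark somatic mutation was taken up first, with naive B cells as the yardstick. Most IgD sequences come from naive cells, whose V segments are germline. Among 101 V genes with 20 or more IgD sequences in the SP, the median IgD sequence had 0 mutations for 92 V genes and 1 or 2 for 5. For 4 V genes it had 3 or more. IGHV1-87 had a median of 45 on 218 IgD sequences, and IGHV8-6 a median of 43 on 842. IGHV1S137 had a median of 8 on 963, and IGHV1S26 a median of 7 on 53. These 4 are called mismatched V genes, since most IgD sequences assigned to them differ from the assigned gene. They gave 5.19% of the high-mismatch SP and 0.839% of the LG sequences (1.94% of the LG sequences without PBS-T mouse 5).

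IGHV8-6 gave 3827 of them, in all 24 mice, and 3827 of its 4087 sequences (93.6%) had 10 or more mutations, while 227 had none. Of those with 10 or more, 3462 were without mismatch to Ighv8-2 and 94.7% were IgM or IgD. IGHV1-87 gave 851, of which 735 equalled Ighv1-2, annotated as an IG_V_pseudogene (chr12:114469075-114469535). For IGHV1S137 (598 high-mismatch sequences) 1 sequence equalled an annotated V gene, Ighv1-67, and for IGHV1S26 (214) none did. The 4 V genes made up 34.5% of the SP sequences with 20 or more mutations.

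Joins of 2 germline V genes were the larger group. A sequence was called a join when it had at most 2 mismatches to the best join of 2 germline V genes, each side at least 30 bases, and more than 2 to any 1 of them. The call was added after the data were seen. Of the 113485 sequences kept, 38279 (33.7%) were joins, 17.0% of those in the LG and 35.2% in the SP. The LG value rests on PBS-T mouse 5, and without it 936 of 2994 LG sequences (31.3%) were joins. In the SP, NOD-FMT mouse 3 gave 20565 of 104304 high-mismatch sequences and 10522 of 36722 joins, so pooled SP values lean on it. The mean share of joins over the 24 SP libraries was 30.8%. The break lay at base 110 of the sequence in the median (quartiles 85 and 155), and in 75.4% both parts were IGHV1 genes, the largest V family of the mouse. The commonest pair joined IGHV1-53 to IGHV1-9 (472 sequences), followed by IGHV1-53 to IGHV1-26 (437) and IGHV1-55 to IGHV1-9 (415). IgBLAST had assigned 51.0% of the joins to the gene of the 3′ part and 44.9% to that of the 5′ part.

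Joins differed from the other high-mismatch sequences in further measures, and these values are a description over pooled sequences. The call allows at most 2 mismatches to the 2 germline parts, so it can find only joins of sequences close to germline. Isotypes and partners with 2 or fewer mutations are therefore not independent of the call. In the SP 98.7% of joins had a count of 1, against 84.9% of the others. They made up 48.9% of the high-mismatch IgM and 50.9% of the IgD sequences in the SP, but 12.3% of the IgA and 20.9% of the IgG1 sequences. The LG did not show this contrast, with joins at 17.9% of IgA and 18.1% of IgM sequences (33.6% and 15.6% without PBS-T mouse 5). For 96.0% of joins in the LG and 70.7% in the SP, the same library held a sequence with the same HCDR3 nucleotides and 2 or fewer mutations. That sequence carried the gene of the 3′ part for 94.1% and 65.0% of joins, and the gene of the 5′ part for 24.5% and 13.3%. Among the other high-mismatch sequences such a partner of any V gene was found for 47.2% in the LG (35.7% without PBS-T mouse 5) and 52.2% in the SP. How the joins arose was not tested.

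**Figure D1:**
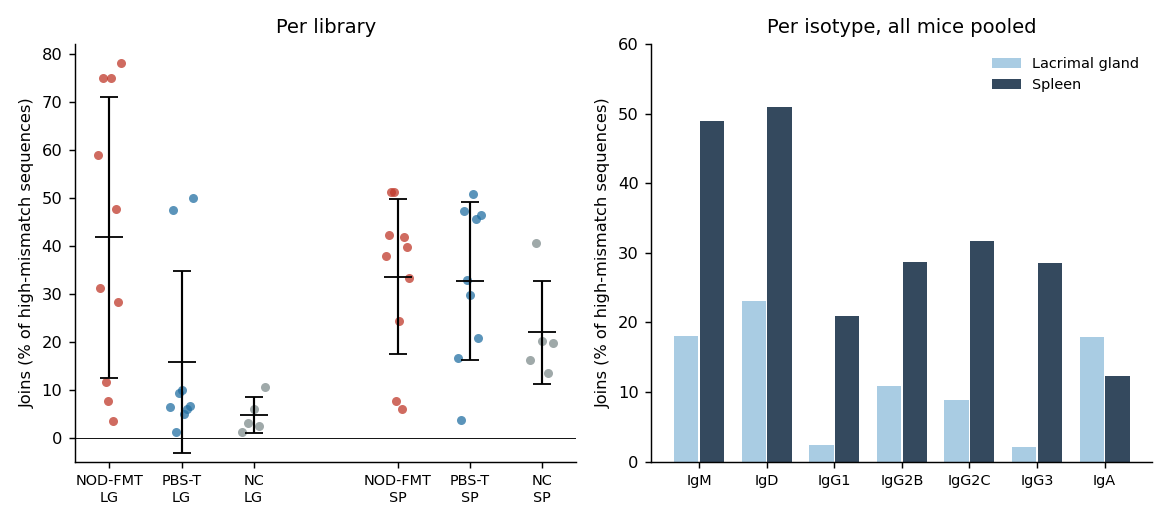
Joins as a percentage of the high-mismatch sequences of a library (left, circles are mice, bars mean and SD for NOD-FMT, PBS-T and NC in LG and SP) and of an isotype with all mice pooled (right, linear axes from 0 for the bars). In the spleen, IgM and IgD stand at 48.9% and 50.9% and IgA at 12.3%.

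Joins varied widely between mice. In the LG they made up 3.54%, 39.4% and 78.1% (lowest, median and highest) of the high-mismatch sequences of NOD-FMT mice and 1.14%, 6.67% and 50.0% of PBS-T mice. The 5 NC glands had 1.25%, 3.05%, 6.06%, 2.46% and 10.7%. NOD-FMT glands were spread over nearly the whole range and overlapped with PBS-T glands, 7 of which stood between 1.14% and 10.04%. The means were 41.7% ± 29.2 (SD, n = 10) and 15.8% ± 18.9 (SD, n = 9), a difference of 25.9 points (exact permutation test, two-sided, p = 0.0370, adjusted p = 0.0423 over 8 tests added after the data were seen). That family also holds comparisons within mice (IGHV1 family, own against other spleens), each at a permutation p of 1e-05. The adjustment therefore moved the p for joins little. Without PBS-T mouse 5 the difference in joins was 25.2 points (exact permutation p = 0.0531). The share of joins also went with the counts of a gland library. NOD-FMT mice 3, 4 and 6 held 61561, 58841 and 53623 counts and 11.7%, 7.69% and 3.54% joins. The other NOD-FMT glands, with 92606 to 264365 counts, had 28.4% to 78.1%. PBS-T mice 2 and 9, with 88241 and 113353 counts, had 47.5% and 50.0%. PBS-T mouse 5 went the other way, with 216868 counts and 10.04%. The part of counts in the group difference was not tested. LG libraries with a merged mark in their deposited names, which may be a batch, averaged 16.3% (n = 11) and the others 31.0% (n = 13). Within merged libraries the NOD-FMT mean was 26.3% and the PBS-T mean 4.81% (6 against 4 mice, exact permutation p = 0.0857), and within the others 64.8% and 24.5% (4 against 5, p = 0.0476). In the SP, NOD-FMT and PBS-T mice averaged 33.5% ± 16.1 and 32.6% ± 16.4 (exact permutation test, p = 0.904).

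Sequences that were neither joins nor of a mismatched V gene numbered 7557 in the LG (82.3%, or 2009 and 67.1% without PBS-T mouse 5) and 62505 in the SP (59.9%). The place of the mismatches was compared with that of all bases, and somatic mutation is known to favour the loops that touch antigen. Leaving out joins, 25.6% ± 4.26 of mismatches in the LG and 24.6% ± 2.17 in the SP were in CDR1 or CDR2 (mean and SD over 24 libraries), although these loops held 18.2% of the bases in both tissues. The share exceeded that of the bases in 23 of 24 LG and 24 of 24 SP libraries. The middle bases of AGCT, a motif that activation-induced deaminase prefers and that reads the same on both strands, held 5.22% of LG and 5.92% of SP mismatches against 2.03% and 2.12% of the bases, higher in 24 of 24 libraries of both tissues. For joins the AGCT values were 3.81% in the LG and 3.60% in the SP against 2.31% and 2.23% of bases, and the CDR values 25.1% in both. These shares are descriptions, since the number of mismatches chose the sequences.

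The number of mutations of high-mismatch sequences had a median of 12 in both tissues and reached 61 in the LG and 77 in the SP. In the LG, 75.6% of them had 10 to 14, 19.4% had 15 to 19 and 4.97% had 20 or more (7.38% without PBS-T mouse 5). In the SP the classes held 68.2%, 18.7% and 13.1%. The classes differed in makeup in the SP. IgA made up 31.6% of sequences with 10 to 14 mutations and 25.6% and 12.9% of the next classes, and IgM 45.0%, 51.0% and 64.0%. Joins made up 33.5%, 41.9% and 34.7% of the 3 SP classes, and mismatched V genes 0.488%, 1.82% and 34.5%. In the LG, IgA was 86.2%, 86.8% and 76.1%.

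The share of high-mismatch sequences in a library was compared next. NOD-FMT glands held 0.446%, 1.41% and 5.57% (lowest, median and highest), and PBS-T glands 0.440%, 1.63% and 7.94%, the highest being PBS-T mouse 5. NC glands held 4.16%, 3.52%, 3.41%, 5.97% and 3.43% in mice 1 to 5. The gavaged groups thus covered one another and reached below every NC gland, while single mice of both stood above most of them. The means were 2.13% ± 1.73 for NOD-FMT, 2.69% ± 2.28 for PBS-T and 4.10% ± 1.09 for NC mice. NOD-FMT and PBS-T did not differ by more than the spread between mice (exact permutation test, p = 0.569, adjusted p = 0.930 over 16 tests). NOD-FMT stood 1.96 points below NC (exact permutation p = 0.0410, adjusted 0.164), and PBS-T 1.41 points below NC (p = 0.237, adjusted 0.758).

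Without joins the distance to untreated mice was larger. NOD-FMT glands then held 0.112%, 1.14% and 2.999% (lowest, median and highest), and the lowest and highest NC glands 3.08% and 5.83%. All 10 NOD-FMT glands stood below all 5 NC glands, the nearest values being 2.999% and 3.08%. Sequences shared between glands lay mostly on the NC side, where 7 to 57 of 128 to 177 distinct high-mismatch sequences of a gland were identical to one of another gland, against 0 to 2 in each NOD-FMT gland. With sequences identical in 2 or more glands also removed, the ranges overlapped, NOD-FMT reaching 3.03% and NC mouse 3 standing at 2.84%, and 8 of 10 NOD-FMT glands lay below every NC gland (NOD-FMT minus NC -2.56 points, exact permutation p = 0.00266, not adjusted). Without that further removal the means were 1.31% ± 1.11 and 3.93% ± 1.13, a difference of 2.62 points (exact permutation p = 0.000999, adjusted p = 0.0160). Without joins and with sequences of 2 or more counts NOD-FMT minus NC was -3.55 points (exact permutation p = 0.000333, not adjusted), and with 15 or more mutations -0.113 points (p = 0.606). With joins kept, the adjusted p was under the threshold of 0.05 with sequences of 2 or more counts (0.00266) and after thinning to equal counts (0.0441), and with 15 or more mutations the sign turned, NOD-FMT being 0.0746 points higher (adjusted p = 0.958). NC mouse 4 held the highest NC value, and without it the difference over all sequences was 1.50 points (adjusted p = 0.440). Without joins, the libraries not marked merged gave 0.247% in 4 NOD-FMT and 3.45% in 4 NC glands (exact permutation p = 0.0286, the smallest that 4 against 4 allow), and merged ones held 1 NC gland (5.83%) and 6 NOD-FMT glands (mean 2.02%). In PBS-T glands the mean without joins was 2.402% ± 2.15. PBS-T mice 1, 3 and 5 stood at 3.98%, 3.42% and 7.20%. The other PBS-T glands lay between 0.220% and 1.48%, below every NC gland. A share below NC was thus not particular to NOD-FMT glands.

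**Figure D2:**
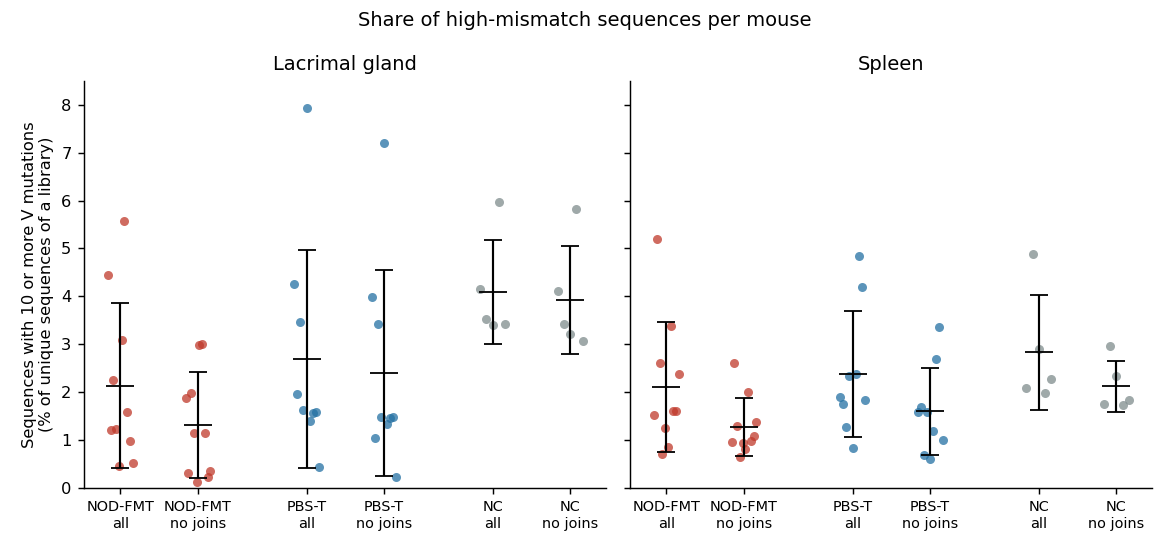
Sequences with 10 or more V mutations as a percentage of all unique sequences of a library, for all of them and without joins (circles are mice, bars mean and SD, linear axis). Without joins, the NC glands sit between 3.08% and 5.83%, the NOD-FMT glands between 0.112% and 2.999% and the PBS-T glands between 0.220% and 7.20%.

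In the SP the share was 0.701%, 1.60% and 5.21% (lowest, median and highest) in NOD-FMT mice, 0.837%, 1.90% and 4.84% in PBS-T mice, and 2.09%, 4.89%, 2.90%, 1.99% and 2.27% in NC mice 1 to 5. The 3 groups overlapped, with means of 2.11% ± 1.36, 2.37% ± 1.31 and 2.83% ± 1.21. No difference between them passed (exact permutation tests, adjusted p = 0.934 between the gavaged groups, and 0.905 and 0.930 for NOD-FMT and PBS-T against NC). Weighted by counts, the SP share was 1.55% ± 0.856 in NOD-FMT, 1.98% ± 1.23 in PBS-T and 3.34% ± 0.466 in NC mice (exact permutation test of NOD-FMT against NC, adjusted p = 0.0266). With sequences of 2 or more counts, both gavaged groups stood below NC and passed (values in the section on processing). The difference between tissues in the share of unique sequences did not pass, with the LG higher than the SP in 12 of 24 mice (mean difference 0.394 points, sign-flip permutation test, p = 0.452, adjusted p = 0.637). Weighted by counts, the LG stood 0.916 points lower than the SP (permutation test, adjusted p = 0.0471).

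Isotype set the tissues apart, though in RNA of whole tissue fewer cells of a type and less RNA per cell cannot be told apart. IgA made up 78.0% ± 19.7 of high-mismatch sequences in the LG and 31.4% ± 14.8 in the SP, higher in the LG of 24 of 24 mice (adjusted p = 5e-05 by a permutation test over sign flips, whose p of 1e-05 was the smallest that 100000 resamples give). Weighted by counts, the difference was 45.7 points against 46.6 unweighted. Other sequences lay further apart, at 83.4% IgA in the LG and 5.93% in the SP (no test), so the contrast is not particular to high-mismatch sequences. IgG made up 11.1% ± 9.14 in the LG and 16.6% ± 8.54 in the SP (LG higher in 6 of 24 mice, permutation test, adjusted p = 0.0410), a call that was lost when any of 16 mice was left out. By group, the LG minus the SP was -11.6 points in NOD-FMT mice alone (exact permutation test, adjusted p = 0.00977), -6.28 in NC and 1.94 in PBS-T mice, where the sign turned. IgM made up 10.5% ± 11.8 in the LG and 46.6% ± 13.2 in the SP. IgD made up 0.328% and 5.36%. Of the IgG subclasses, IgG2B stood at 4.10% in the LG and 7.74% in the SP and IgG2C at 4.596% and 4.79%. IgE was found on 0 of 9181 LG sequences, which allows a share of up to 0.0327% (0.1002% over the 2994 sequences without PBS-T mouse 5), and on 32 of 104304 in the SP.

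High-mismatch sequences of the SP had switched more often than all other sequences of the same library. The classes next to the limit lay close to one another, since over pooled SP sequences IgA and IgG made up 30.2% and 21.3% at 9 mutations and 31.3% and 19.4% at 10 (no test). IgA made up 7.03%, 27.7% and 65.6% (lowest, median and highest) of high-mismatch and 3.07%, 5.59% and 13.8% of other sequences, and it was higher in 24 of 24 mice (means 31.4% and 5.93%, permutation test, adjusted p = 3e-05). IgG was 16.6% against 6.27%, also higher in 24 of 24 mice (permutation test, adjusted p = 3e-05). In the LG, where IgA led in both, high-mismatch and other sequences were 78.0% and 83.4% IgA (adjusted p = 0.111) and 11.1% and 8.16% IgG (permutation test, adjusted p = 0.0679). Read the other way, 10.2% ± 3.79 of all IgA sequences in the SP were high-mismatch. The values were 6.79% for IgG1, 6.15% for IgG2C, 5.24% for IgG2B and 5.08% for IgG3, against 1.58% for IgM and 1.10% for IgD. Without joins the values were 0.812% for IgM, 0.524% for IgD and 9.13% for IgA.

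**Figure D3:**
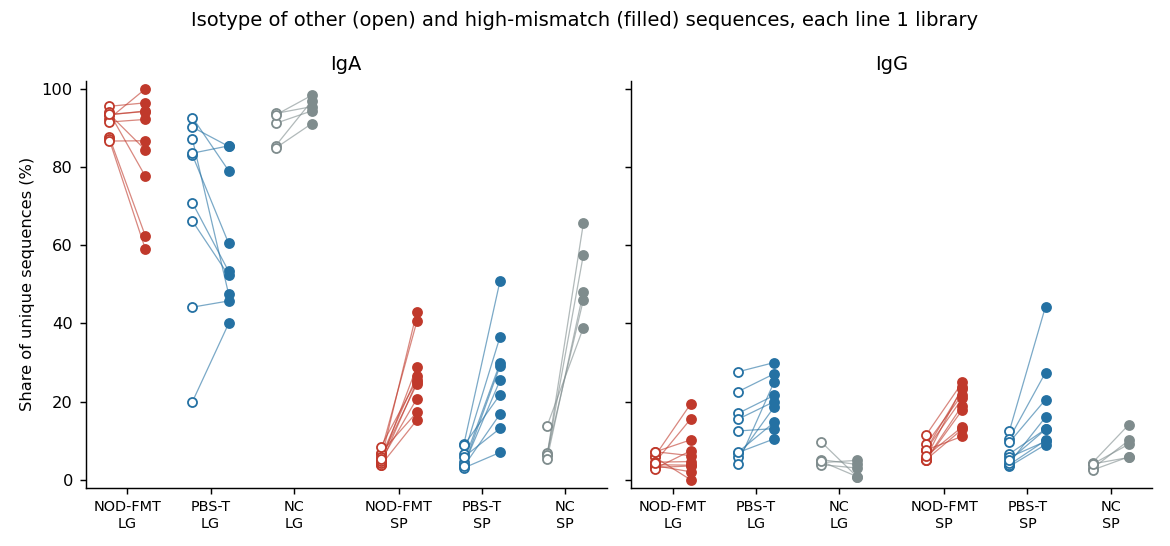
IgA (left) and IgG (right) as a percentage of unique sequences, for other sequences (open circles) and high-mismatch sequences (filled circles) of each library, joined by a line, in LG and SP of NOD-FMT, PBS-T and NC mice. In the spleen every line rises for both isotypes.

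Between the gavaged groups, the IgG share of high-mismatch gland sequences differed. NOD-FMT glands had 0%, 5.44% and 19.5% (lowest, median and highest), PBS-T glands 10.5%, 20.0% and 30.0%, and NC glands 5.00%, 0.763%, 3.03%, 3.94% and 0.820%. The groups overlapped, in that NOD-FMT mice 3 and 10 reached into the PBS-T range, and NC glands lay with the lower NOD-FMT glands. The means of NOD-FMT and PBS-T were 7.31% ± 6.16 and 20.1% ± 6.58, a difference of 12.8 points (exact permutation test, p = 0.000866, adjusted p = 0.0139). Without PBS-T mouse 5 it was 13.6 points lower in NOD-FMT (adjusted p = 0.0117). The numbers behind a gland are small, since PBS-T mouse 9 had 6 IgG sequences among 20 (30.0%, 95% Wilson interval 14.5% to 51.9%). Within merged libraries the difference was 11.1 points (adjusted p = 0.0857) and within the others 14.7 points (adjusted p = 0.106), in the same direction.

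The IgG difference moved with joins. Without joins the NOD-FMT mean was 11.1% ± 7.53 and the PBS-T mean 16.7% ± 5.10 (exact permutation test, adjusted p = 0.245). Weighted by counts the means were 8.76% and 12.05% (adjusted p = 0.871), and with sequences of 2 or more counts NOD-FMT was 5.80 points higher (adjusted p = 0.739). The IgG of other gland sequences also differed in level, at 4.87% ± 1.58 in NOD-FMT and 13.2% ± 8.13 in PBS-T mice. By subclass, IgG2C stood at 1.57% ± 2.11 in NOD-FMT and 9.91% ± 8.35 in PBS-T glands, IgG1 at 1.40% and 4.00%, IgG2B at 4.32% and 5.39% and IgG3 at 0.0209% and 0.768%. IgA was 84.7% ± 14.2 in NOD-FMT, 61.0% ± 17.7 in PBS-T and 95.3% ± 2.75 in NC glands, and the 23.7 points between the first 2 did not pass (exact permutation test, p = 0.00695, adjusted p = 0.0556). That call was gained when NOD-FMT mouse 3 or 4 or PBS-T mouse 4, 5 or 7 was left out (adjusted p = 0.0220 to 0.0360). The IgA values moved with joins too, at 79.2% and 65.7% without them (13.5 points, adjusted p = 0.245), and at 88.3% and 79.8% weighted by counts (8.43 points, adjusted p = 0.471). With sequences of 2 or more counts the sign turned, NOD-FMT being 4.00 points lower (adjusted p = 0.740). The IgA of other gland sequences was 91.5% ± 3.19 in NOD-FMT and 70.9% ± 24.3 in PBS-T mice. In the SP, IgA stood at 26.8% ± 8.97, 25.7% ± 13.2 and 51.2% ± 10.4 in NOD-FMT, PBS-T and NC mice, and IgG at 18.9% ± 4.89 and 18.1% ± 11.5 in the gavaged groups (adjusted p = 0.934 for both isotypes between NOD-FMT and PBS-T, exact permutation test). The IgA of NC spleens was not tested against the gavaged groups.

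V genes were compared over clonotypes, so that a large clone counts once. The V genes given with a position lie in the heavy-chain locus of chromosome 12 on the minus strand, and positions follow GENCODE M21 on GRCm38. The mismatched IGHV1-87, IGHV1S137 and IGHV1S26 had no entry under these names in that annotation. The V gene call and the number of mutations come from the same alignment, so these values are less independent of the rule than isotypes. With the mismatched V genes left out, the IGHV1 family made up 80.4% ± 8.25 of high-mismatch against 58.9% ± 6.91 of other LG clonotypes, and 80.6% ± 3.40 against 61.3% ± 2.12 in the SP, higher in 24 of 24 mice of both (permutation tests added after the data were seen, adjusted p = 1e-05 over 4 tests, the smallest that the resamples give). Without joins as well, the values were 77.6% in the LG and 80.4% in the SP (higher in 22 and 24 of 24 mice, permutation tests, adjusted p = 1e-05 for both).

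Over all 24 mice and with joins kept, IGHV1-26 led in both tissues. In the SP the mismatched IGHV8-6 led without joins (10.8% against 8.40%) and in NOD-FMT mice (7.76% against 7.10%). IGHV1-26 made up 10.2% ± 7.28 of high-mismatch LG clonotypes and 7.79% ± 1.81 of SP clonotypes, against 6.04% and 7.75% of other clonotypes. In the LG it was followed by IGHV1-53 (chr12:115158403-115158835) with 6.09% and IGHV1-9 (chr12:114583569-114584002) with 5.78% ± 6.32, against 5.19% and 2.54% of other clonotypes. IGHV1-64, IGHV1-55, IGHV1-72, IGHV1-76, IGHV1-22, IGHV1-82 and IGHV1-18 made up the rest of the 10 leading LG genes, at 2.63% to 4.09%. Over all SP clonotypes IGHV8-6 came after IGHV1-26 with 7.04% ± 5.03 against 0.00633% of other clonotypes. Next were IGHV1-53 with 6.50% ± 1.32, IGHV1-9 with 5.29% ± 1.13 and IGHV1-55 with 4.85% ± 1.81, against 4.07%, 2.58% and 3.49%. Then came IGHV1-64, IGHV1-82, IGHV1-80, IGHV1-72 and IGHV1-76, at 2.75% to 3.31%.

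**Figure D4:**
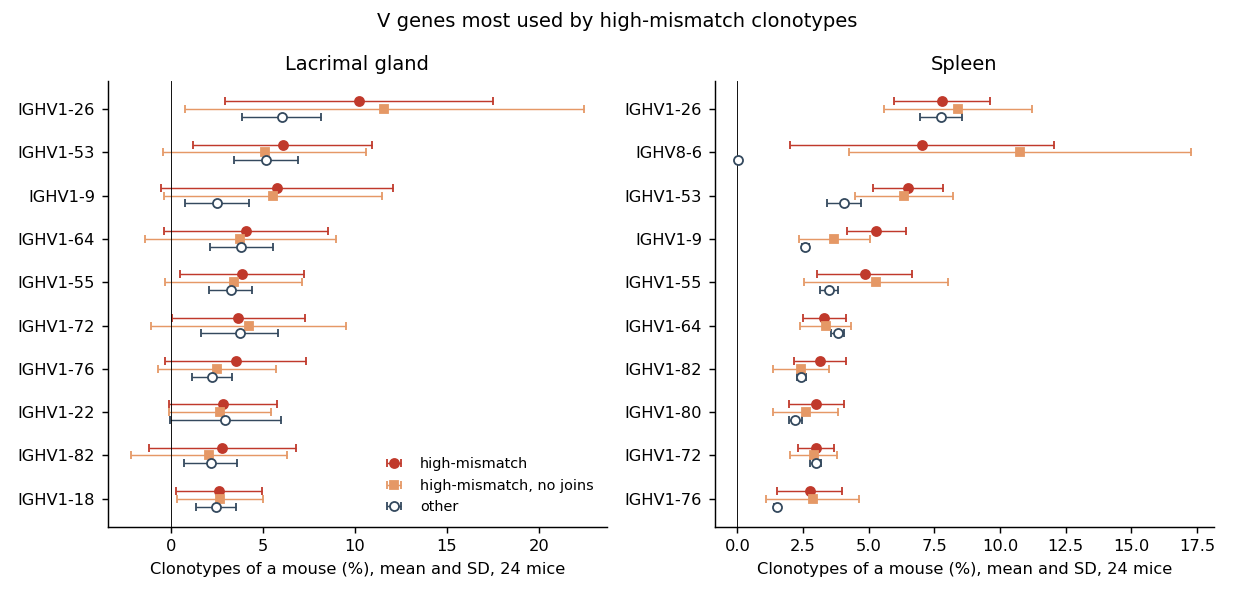
The 10 V genes most used by high-mismatch clonotypes in LG and SP, as a percentage of the clonotypes of a mouse (points mean, bars SD over 24 mice, linear axis), for all high-mismatch clonotypes, those without joins and other clonotypes. IGHV1-9 lies at 5.29% in the spleen against 2.58% of other clonotypes, and at 3.69% without joins.

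The scaling of libraries moved the V gene tests. TMM, which centres on the V genes that pass the filter on low counts, was compared with the total of all clonotypes of a library, an alternative added after the data were seen. TMM moved the median gene by -0.71 (log2) in the LG comparison of high-mismatch with other clonotypes, by 0.33 in that of the SP, by -0.57 between tissues and by -0.13 between NOD-FMT and PBS-T spleens. A V gene is written to have risen or fallen where both scalings called it in that direction.

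In the SP, edgeR's quasi-likelihood test with Benjamini-Hochberg adjustment called 76 of 91 V genes between high-mismatch and other clonotypes (83.5%), 34 higher (37.4%) and 42 lower (46.2%). With the total of all clonotypes it called 27 higher and 50 lower, and 69 calls were shared. The mismatched IGHV1-87, IGHV8-6 and IGHV1S137 are among the 34, but their mismatches to the assigned gene count toward the rule itself, so that their differences are no result. With the 4 mismatched V genes left out, edgeR called 71 of 87, 31 higher and 40 lower. The 5 V genes with an IgD median of 1 or 2 were not left out. For every V gene, the mutations that chose the sequences were counted against the V gene tested. The calls between high-mismatch and other clonotypes, in the LG too, are therefore a description. The named rises were those of IGHV1-77 (log2 fold change 2.47 ± 0.13, SE) and IGHV1-11 (1.61 ± 0.19). IGHV1-9 rose by 1.34 ± 0.08 (adjusted p = 1.9e-23) and by 0.97 ± 0.13 without joins. IGHV1-77 stood at 3.08 ± 0.17 without joins, and IGHV1-11 at 0.21 ± 0.35 (adjusted p = 0.580). The largest falls were those of IGHV5-15 (-3.005), IGHV15-2 (-2.47), IGHV3-6 (-2.29), IGHV3-8 (-2.26) and IGHV2-6-1 (-2.19). IGHV6-3 and IGHV6-6 fell by 1.12 ± 0.12 and 0.81 ± 0.15 on the log2 scale. IGHV11-2, a gene of B-1 cells, which mutate little, was at 0.31 ± 0.25 (adjusted p = 0.249) in 44 SP clonotypes, of which joins made up much of the share (0.0606% with and 0.0245% without joins). IGHV12-3, of the same cells, was found in 14 SP clonotypes.

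In the LG the direction of the calls turned with the scaling. With TMM edgeR called 3 of 11 V genes (27.3%), 0 higher and 3 lower, and with the total of all clonotypes 4 of 11, 3 higher and 1 lower. The 1 call shared was that of IGHV3-6, which fell by 2.67 ± 0.35 with TMM and by 2.15 ± 0.32 with the total (log2). IGHV1-72 and IGHV1-64 stood at -0.75 and -0.63 with TMM but at -0.07 and 0.10 with the total (adjusted p = 0.767 and 0.714 by edgeR). IGHV1-9 stood at 1.02 ± 0.21 with the total, IGHV1-76 at 0.73 and IGHV1-26 at 0.62, which TMM did not call. Without PBS-T mouse 5 TMM called 5 of 9. IGHV11-2 was used by 0 of 3806 high-mismatch LG clonotypes, counted per mouse, which allows a share of up to 0.0788% (0.190% over the 1582 without PBS-T mouse 5), and by 0.315% of the others, and IGHV6-3 by 0.254% against 2.00%. Between tissues, edgeR with TMM called 8 of 17 V genes (47.1%), all lower in the LG, and with the total of all clonotypes 1 of 17, the mismatched IGHV8-6. That gene stood at -4.24 ± 0.46 (LG against SP, log2) with TMM and at -3.83 ± 0.46 with the total. The next 4, IGHV1-80, IGHV1-7, IGHV1-82 and IGHV1-81, stood at -0.92 to -1.36 with TMM and at -0.34 to -0.81 with the total (adjusted p = 0.159 to 0.537 by edgeR). With TMM 2 of 11 were called without PBS-T mouse 5, and 3 of 8 without joins.

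Between NOD-FMT and PBS-T mice, edgeR called 0 of 48 V genes of SP clonotypes (0%). An unadjusted p under 0.05 was reached by 5, the smallest adjusted p was 0.268, and DESeq2 and the total of all clonotypes also called 0. Among the named genes, IGHV3-6 stood lowest in NOD-FMT mice with a log2 fold change of -0.89 ± 0.33 (SE), next to IGHV1-81 with -0.66 ± 0.26 (adjusted p = 0.268 for both), and IGHV6-6 highest with 0.59 ± 0.33 (adjusted p = 0.420). In the LG no V gene had enough clonotypes for the filter on low counts. Without the filter, 0 of 111 were called.

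The difference in HCDR3 length did not pass between tissues (LG minus SP 0.0765 residues, permutation test, adjusted p = 0.703) or between NOD-FMT and PBS-T mice, and NC mice were not tested. High-mismatch clonotypes averaged 11.5 residues in both tissues (SD over mice 0.788 in the LG and 0.349 in the SP), against 11.6 and 11.5 of other clonotypes (permutation tests, adjusted p = 0.467 in the LG and 0.361 in the SP). NOD-FMT and PBS-T means were 11.5 and 11.4 in the LG and 11.4 and 11.5 in the SP (exact permutation tests, adjusted p = 0.934 for both). The SP difference from other clonotypes took either sign with the makeup of the set. It was -0.287 residues without mismatched V genes (permutation test, adjusted p = 2e-05), 0.407 residues with counts of 2 or more (adjusted p = 3e-05) and 0.0985 without joins (adjusted p = 0.154).

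The next question was whether high-mismatch sequences had unmutated relatives. There were 3665 distinct high-mismatch clonotypes in the LG, of 37638 in all, and 66680 of 3154791 in the SP. Most held a single high-mismatch sequence in their library, 78.5% ± 11.7 in the LG and 85.9% ± 4.81 in the SP. An unmutated sequence of the same clonotype was in the same library for 17.2% ± 15.01 of LG and 15.2% ± 3.05 of SP clonotypes (LG higher in 10 of 24 mice, permutation test, adjusted p = 0.637). The sign turned with the group, since the LG minus the SP was 11.95 points in NOD-FMT mice alone (adjusted p = 0.0423), -4.19 in PBS-T and -7.01 in NC mice. With both tissues of the mouse searched, the shares were 21.9% and 15.3%. A sequence with 1 to 9 mutations was found for 34.8% ± 18.5 in the LG and 28.1% ± 4.03 in the SP. Joins again stood apart, though their call takes only sequences close to germline parts. Over pooled clonotypes, 33.1% of those with joins in the LG and 23.8% in the SP had an unmutated relative, against 10.1% and 11.7% of the others. For comparison, clonotypes whose sequences had at most 9 mutations and at least 1 had an unmutated member in 25.6% (LG) and 16.3% (SP).

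NOD-FMT glands had unmutated relatives for 8.33%, 29.8% and 46.7% (lowest, median and highest) of high-mismatch clonotypes, and PBS-T glands for 0%, 6.38% and 38.9%. The highest PBS-T gland, mouse 9, had 18 clonotypes and the next stood at 18.2%. The means were 27.9% ± 14.6 and 10.9% ± 11.8, and the difference of 17.0 points did not pass (exact permutation test, p = 0.0156, adjusted p = 0.0830). It passed without NOD-FMT mouse 4 or PBS-T mouse 9 (adjusted p = 0.0434 and 0.0219), and stood at 20.7 points without joins (adjusted p = 0.0681). NC glands averaged 6.996% ± 5.49. In the SP the means were 15.99% ± 3.43, 15.1% ± 3.42 and 14.01% ± 0.693.

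The number of high-mismatch clonotypes per LG library ranged from 18 to 337 in NOD-FMT, from 18 to 79 in PBS-T mice other than mouse 5, and from 49 to 85 in NC mice. On the log2 scale NOD-FMT and PBS-T glands averaged 5.86 ± 1.37 and 5.88 ± 2.09 (exact permutation test, adjusted p = 0.984). Without PBS-T mouse 5 NOD-FMT stood 0.64 higher (adjusted p = 0.705). In the SP the log2 averages were 11.25 and 10.75 (adjusted p = 0.905). None of these numbers was scaled to library size.

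High-mismatch gland clonotypes recurred in the own spleen more often than in other spleens. In the mean, 36.5% ± 19.1 of high-mismatch LG clonotypes had a sequence of any mutation in the own spleen against 2.17% ± 2.38 in the spleens of the other 23 mice, higher in 23 of 24 mice, PBS-T mouse 5 being the exception. A high-mismatch sequence in the own spleen was found for 21.5% ± 16.7 against 0.544% ± 0.796, higher in 24 of 24 mice (permutation tests added after the data were seen, adjusted p = 1.3e-05 for both). Without PBS-T mouse 5 the own-spleen shares were 38.1% and 22.4%. Of the gland clonotypes without a high-mismatch sequence, 33.0% ± 13.0 were in the own spleen and 2.71% ± 0.893 in other spleens. The difference of 3.48 points from the high-mismatch clonotypes in the own spleen did not pass (higher in 14 of 24 mice, permutation test added after the data were seen, p = 0.270, adjusted p = 0.270 over 2 tests). The clonotype of NC mouse 4 shown above is such a case. In the other direction, 2.99% ± 1.35 of high-mismatch SP clonotypes were in the own gland.

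**Figure D5:**
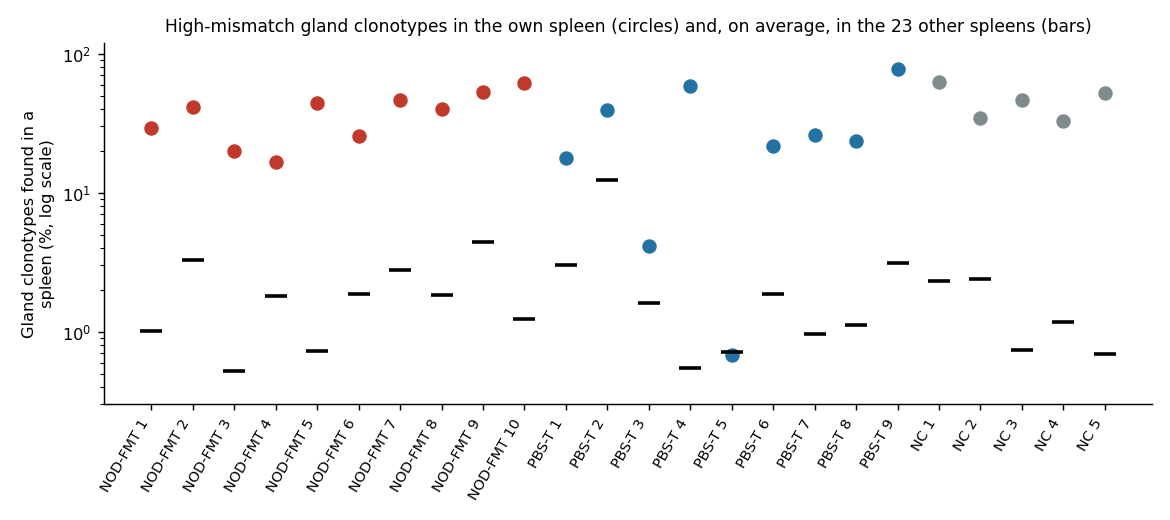
Percentage of the high-mismatch clonotypes of each gland shared with the own spleen (circles) and, as a mean, in the 23 other spleens (bars), on a log axis. The gland of PBS-T mouse 5 stands at 0.674%, and the other 23 lie between 4.11% and 77.8%.

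Single high-mismatch clonotypes reached up to 2.95% of the counts of a library that were kept after the removal of shared sequences. In the LG of NOD-FMT mouse 6, IGHV1-53 IGHJ3 ASGLSRFAY held 1584 of 53623 counts (the highest share, with a 95% Wilson interval of 2.81% to 3.10%) on 58 sequences, all IgA with 11 to 15 mutations and none unmutated. The IGHV14-2 clonotype of NOD-FMT mouse 7 shown above held 1.87% of the kept counts of its library. It was followed by IGHV1-72 IGHJ1 ARSKGTGYFDV of NC mouse 4 (1.16%), IGHV1-26 IGHJ2 ARGRDYDGRTDY of NC mouse 1 (0.906%) and IGHV6-3 IGHJ3 TGDVKAWFAY of NC mouse 2 (0.666%). The clonotype of NC mouse 1 had 75 sequences from 0 to 13 mutations, 4 of them unmutated with 331 counts. The IgA share of these 5 was 96.0% or more of their counts.

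Leading SP clonotypes took smaller shares of the kept counts. The IGHV1-26 clonotype of NC mouse 4 held 0.495% of its SP library on 186 high-mismatch sequences, of 349 in all. IGHV1-9 IGHJ3 ARTSYGSRFAY of PBS-T mouse 8 held 0.453% on 201 sequences, and 99.5% of its counts were IgM. The third, IGHV8-6 IGHJ4 with an HCDR3 of 15 residues in NOD-FMT mouse 5 (0.386%), had 42 to 45 mutations on all of its 51 sequences and belongs to the mismatched V gene. IGHV1-81 IGHJ2 with an HCDR3 of 17 residues in PBS-T mouse 7 (0.267%) was 93.6% IgG2C, and IGHV1-80 IGHJ2 ATGRYGSSHGY of PBS-T mouse 1 (0.262%) was 85.0% IgA.

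Recurrence between glands was counted after the removal of sequences identical in at least 3 mice, which lowers it. Of 3665 high-mismatch clonotypes, 3550 were high-mismatch in 1 gland, 95 in 2 and 20 in 3 or 4, so that 3.14% recurred. Without PBS-T mouse 5 there were 1514, of which 50 were in 2 glands and 9 in 3, or 3.90%. Of the 33973 gland clonotypes with no high-mismatch sequence, 5.37% were in 2 or more glands (5.93% without PBS-T mouse 5). Without the removal the shares were 3.30% and 5.68%, and 28 high-mismatch clonotypes were in 3 or more glands. These shares are a description, since a clonotype had to be high-mismatch in each gland to count among the first. PBS-T mouse 5 held 17 of those 20, with 4 to 393 counts each, where other glands held at most 3 counts of any of them, and 1 of the 20 was found in any spleen. The highest were IGHV1-78 IGHJ2 AREVAYYGNYDY (393 counts in PBS-T mouse 5, at most 3 elsewhere), IGHV1-64 IGHJ1 ARGYYGNYWFFDV (381 and 3) and IGHV1-22 IGHJ3 ARSSGTRGFAY (368 and 3). In the SP 247 clonotypes were high-mismatch in 3 or more mice, at most in 12.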

How the data were processed

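BCR heavy-chain libraries of LG and SP of each mouse were analysed. Per the study's methods, the authors reverse-transcribed total RNA with constant-region primers that carry a molecular identifier, made the second strand with V primers, ran 25 cycles of indexing PCR, merged the reads with PEAR v0.9.10, kept those with a Phred score of 20 in over 95% of bases, and clustered identifiers without singletons with Clustal Omega v1.2.4. IgBLAST v1.17.1 gave the V genes, and the authors left out unproductive sequences. The deposited counts are the consensus sequences of molecular identifiers per unique sequence and isotype, and the deposited number of V mutations counts mismatches and missing bases. The germline release is not given in the sources used here. The labels name mm10. BCR libraries hold no marker genes, so the tissue labels could not be checked.

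Members and lists were chosen with earlier results of these data known. Sequences identical between at least 3 mice of 1 tissue were left out, which took 9.83% of LG and 9.84% of SP counts. Among the glands the loss was uneven and largest for PBS-T mouse 5. The study reports a far smaller loss in the LG for its own removal of shared sequences. Counts per library and shares of counts are those after the removal. The mouse was the unit. Gavaged groups were compared by exact permutation tests (two-sided, 92378 splits) and measures within a mouse by sign-flip permutation tests with 100000 resamples. Benjamini-Hochberg adjustment ran over 16 group, 5 tissue, 6 within-library and 8 added tests, with a threshold of 0.05. In the 5 NC mice alone, a sign-flip test cannot go below 0.0625. Clonotypes per V gene were tested with edgeR v4.0.16 (quasi-likelihood, TMM, R v4.3.3), with DESeq2 v1.42.0 and, added later, the total of all clonotypes without TMM as alternatives. Python v3.11.15, NumPy v2.4.6, SciPy v1.17.1 and pandas v2.3.3 were used for the rest, and the tests were checked on simulated data.

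Joins and everything that leaves them out were added after the data were seen. Their panel held 321 V segments, 198 of GENCODE M21 (GRCm38) and 123 common unmutated ones of these files. A V gene was taken as mismatched where its IgD sequences in the SP, 20 or more, had a median of 3 or more mutations. Named are the 10 V genes most used in each tissue, the mismatched ones, up to 5 with the largest change each way among those called in a comparison, a fixed list (IGHV11-2, IGHV12-3, IGHV6-3, IGHV6-6, IGHV1-9), the 5 leading clonotypes of each tissue and the recurrent gland clonotypes. Alternatives were no removal or removal at 2 mice, 8 or 15 mutations, counts of 2 or more, thinning, weighting by counts, other filters and scalings, libraries marked merged, pairing by number, and each mouse left out. Intervals and limits cover counting error only.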

Additional observations from a re-analysis of the deposited data

Results flagged for a closer look

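Of 36 groups of libraries tested for a single value far from the others, 4 had one, and chance gives about 1 in 20. The numbers of clonotypes were not scaled to library size. The LG of PBS-T mouse 5 held 2224 high-mismatch clonotypes of 17213 in all, where the next PBS-T gland, mouse 1, held 79 of 867. In the SP, NOD-FMT mouse 3 held 13475 of 593820 clonotypes, and the next, NOD-FMT mouse 7, 5402 of 160982. High-mismatch sequences made up 2.62% of the sequences in the SP library of mouse 3 and 3.38% in that of mouse 7. The mean HCDR3 length in the LG of PBS-T mouse 2 was 9.52 residues, the next 11.29. In the LG of PBS-T mouse 9, which had 18 high-mismatch clonotypes, 38.9% had an unmutated relative, the next 18.2%.

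The effect of NOD-FMT against PBS-T was larger in the LG than in the SP for 3 of 6 measures, by a permutation of the group labels over mice with both tissues kept together. The IgG share of high-mismatch sequences gave an LG effect minus SP effect of -13.5 points (permutation p = 0.00734), the IgA share 22.6 points (p = 0.0177) and the share of clonotypes with an unmutated relative 16.1 points (p = 0.0161), with an adjusted p of 0.0354 each. Joins made up 41.7% of the high-mismatch sequences in NOD-FMT and 15.8% in PBS-T glands, against 33.5% and 32.6% in the SP. Without joins, an alternative added after the data were seen, the LG effect minus SP effect was -6.32 points for IgG (exact permutation p = 0.246) and 12.5 points for IgA (p = 0.128), and neither passed. For unmutated relatives it was 20.1 points (exact permutation p = 0.0146, adjusted p = 0.0438 over 3 tests). These 3 were the measures already called among the 6, so this adjusted p cannot count as a pass. Glands were also small then, NOD-FMT mice 5, 9 and 10 having 4, 10 and 14 clonotypes, the first with 3 of 4. Without NOD-FMT mouse 5 it was 14.5 points (exact permutation p = 0.0199), and without the 4 glands of under 15 clonotypes 12.2 points (p = 0.0637).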

How the results depend on the processing

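Of 921 alternative values for 32 results, 786 kept their direction and their side of the threshold. The cause of a change was not tested unless the alternative itself shows it. Differences are in percentage points, residues (HCDR3) or log2 (clonotypes), and p is adjusted.

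Between groups in the LG, the share of NOD-FMT minus NC was -5.18 (p = 0.0320) with 8 or more mutations, -3.35 (p = 0.00266) with counts of 2 or more, -2.42 (p = 0.0441) when thinned, -2.62 (p = 0.0160) without joins and -2.60 (p = 0.00533) without joins and mismatched V genes, but 0.0746 (p = 0.958) with 15 or more mutations. PBS-T minus NC was 0.204 with 15 or more mutations. NOD-FMT minus PBS-T was 0.359 in merged libraries for the share. For IgA it was 24.4 (p = 0.0398) without removal of shared sequences, 24.6 (p = 0.0489) with removal at 2 mice, 25.0 (p = 0.0456) without mismatched V genes, 21.5 (p = 0.0441) when thinned and -4.0 with counts of 2 or more. For IgG it was 5.80 with counts of 2 or more, -3.28 weighted by counts, -5.65 without joins, -7.47 without joins and mismatched V genes, -11.1 in merged and -14.7 in other libraries. HCDR3 length was -0.139 with counts of 2 or more, -0.134 without joins, -0.123 without joins and mismatched V genes and -0.520 in merged libraries. Clonotypes were 0.147 with 15 or more mutations, 0.0970 with removal at 2 mice and 0.488 in merged libraries. Unmutated relatives were 14.1 (p = 0.0320) with 8 or more mutations and 14.98 (p = 0.0441) when thinned.

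Between groups in the SP, the share of NOD-FMT minus NC was -1.97 (p = 0.00266) and of PBS-T minus NC -1.45 (p = 0.0266) with counts of 2 or more, and NOD-FMT minus NC -1.80 (p = 0.0266) weighted by counts. For NOD-FMT minus PBS-T, IgG was -0.508 with 15 or more mutations and -2.70 with counts of 2 or more, HCDR3 length 0.0881 and 0.0918, and clonotypes -0.0430 when thinned.

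Between tissues, LG minus SP was -0.0176 with 15 or more mutations and -0.916 (p = 0.0471) weighted by counts for the share. For IgG it was -0.264 with 15 or more mutations, -6.87 with counts of 2 or more, -5.16 when thinned, -4.88 without removal, -6.28 in NC and 1.94 in PBS-T mice alone. IgA was 44.0 in NC mice alone, where 5 mice cannot pass. HCDR3 length was -0.0384 with 15 or more mutations, -0.0496 without joins and -0.0693 in PBS-T mice alone. Unmutated relatives were -4.88 with counts of 2 or more, 11.95 (p = 0.0423) in NOD-FMT, -4.19 in PBS-T and -7.01 in NC mice alone.

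High-mismatch minus other sequences gave, in the LG, IgG of 3.39 (p = 0.0405) without removal, 6.83 (p = 0.00781) in PBS-T and -2.89 in NC mice alone, IgA of 5.54 and HCDR3 of 0.0568 in NC mice alone, and HCDR3 of 0.0331 with 15 or more mutations. In the SP, NC mice alone gave 43.4 for IgA and 5.39 for IgG, and HCDR3 was 0.182 with 15 or more mutations, 0.407 with counts of 2 or more, -0.287 without mismatched V genes, 0.0985 without joins and -0.231 without joins and mismatched V genes.

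For V genes, the count called between high-mismatch and other LG clonotypes was 3 and became 72 without a filter on low counts, 29 over unique sequences, 6 without joins and 5 without PBS-T mouse 5. Between tissues it was 8 and became 49 without the filter, 5 with DESeq2, 5 without removal, 2 without mismatched V genes, 3 without joins, 2 without PBS-T mouse 5 and 1 with the total of all clonotypes in place of TMM. With that scaling the LG count was 4 (3 of them higher), the SP count of high-mismatch against other clonotypes 77 against 76, and the count between groups 0. Between NOD-FMT and PBS-T spleens it was 0 and became 1 without the filter. DESeq2 size factors within edgeR could not be computed for the 3 comparisons that hold LG clonotypes, and for NOD-FMT against PBS-T glands only the unfiltered alternative could be run, since no V gene passed the filter.

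Mice with the same number in NOD-FMT and PBS-T groups did not deviate together (correlations of -0.229 to 0.357 in the LG and -0.253 to 0.361 in the SP over 9 pairs), so the numbers were not taken as pairs. With a replicate block, unmutated relatives in the LG differed by 15.9 (p = 0.0313), LG clonotypes by 0.145 and SP HCDR3 length by 0.000802. The block moved no other call between these groups. Without the block of mouse, LG minus SP for IgG was -5.41 (p = 0.0956).

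With each mouse left out in turn, 496 of 552 values were unchanged in call and direction. LG NOD-FMT minus PBS-T ranged from -0.939 to 0.0995 for the share (the sign turned without PBS-T mouse 5), from 21.1 to 26.8 for IgA, from -14.1 to -11.5 for IgG, from -0.112 to 0.269 for HCDR3, from -0.300 to 0.637 for clonotypes and from 14.9 to 20.5 for unmutated relatives. The same in the SP ranged from -0.604 to 0.0485, -1.25 to 4.24, -0.362 to 4.05, -0.135 to 0.0516, 0.227 to 0.741 and -0.0301 to 1.64, in that order. Against NC, shares ranged from -2.35 to -1.50 (NOD-FMT) and -2.06 to -0.941 (PBS-T) in the LG, and from -1.06 to -0.201 and -0.765 to 0.0592 in the SP. LG minus SP ranged from 0.102 to 0.585 for the share, 45.2 to 48.2 for IgA, -6.31 to -4.62 for IgG, 0.0053 to 0.193 for HCDR3 and 0.744 to 2.79 for relatives. High-mismatch minus other ranged from -6.48 to -3.89 for IgA, 2.20 to 3.50 for IgG and -0.149 to -0.0228 for HCDR3 in the LG, and from 24.05 to 26.5, 9.35 to 10.7 and -0.0857 to -0.0392 in the SP. The call of the last LG IgG difference was gained without NOD-FMT mouse 5, NC mouse 2 or NC mouse 5.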
